A study of Homo sapiens with 2 samples.

Results

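Exons of 50 to 250 bp that lie between very short introns were taken from exon-level read counts of Huh-7, a cell line from a human hepatocellular carcinoma. An exon was a member when the gap to the nearest exon before it and after it on the same strand was 60 to 150 bp on both sides. The rule uses positions only, and the mitochondrial rows were left out. It found 3771 of the 239322 exons listed (1.58%). Of these, 1441 had a length divisible by 3 and 2330 did not.

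The cells had been treated for 24 h with 0.1% DMSO (control) or with 0.1 mM BS008 (an amiloride derivative), at passages 15 to 20. The comparison asks how splicing changes across the genome under BS008. Each condition has 1 library, so no difference below has a replicate check and no test was made. A difference between the conditions cannot be told apart from one between 2 cultures or 2 library preparations.

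An exon is joined to its neighbours when the splicing machinery removes the introns on either side. Splice sites are thought to be paired across the intron where the intron is short, and across the exon where the introns are long. Skipping of an exon whose length is divisible by 3 keeps the reading frame, while skipping of any other exon shifts it. Retention of an intron leaves reads between the exons, where the files list nothing, so it is not measured here. Rows carry hg19 positions and no gene names, so exons are given by position, were not assigned to genes, and the cell line could not be checked against marker genes. Whether an exon and the rows beside it belong to the same transcript is likewise not stated. Nor is it stated whether every row is a spliced exon, and the word exon is used below for any listed row.

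Within the limits set by the rule, the median length of the members was 115 bp, with quartiles of 87 and 148 bp. The gap on the 5′ side had a median of 95 bp (quartiles 84 and 115 bp), and the gap on the 3′ side a median of 95 bp (84 and 116 bp). Lengths that left a remainder of 0, 1 or 2 on division by 3 made up 38.2%, 31.4% and 30.4% of members.

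They were concentrated on a few chromosomes. Chromosome 17 held 424 members, chromosome 19 held 414 and chromosome 16 held 361. These 3 chromosomes, known as rich in genes, carried 31.8% of the members but 15.3% of all exons listed. At the other end, 8 members were on chromosome 13, 8 on chromosome 18 and 6 on chromosome 21. Members often followed each other, as 1996 of them stood in 755 runs of 2 or more and 1775 stood alone.

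The reads on all exons summed to 55476654 in control cells and to 53578432 after BS008. The members held 969045 of the control reads (1.75%) and 921069 of the BS008 reads (1.72%). At least 1 read was counted on 3075 members (81.5%) in control cells and on 3090 (81.9%) after BS008. Among all exons these shares were 65.7% and 66.9%. Another 571 members (15.1%) had no read in either library, where 3 reads on an exon of the median length correspond to 0.470 RPKM in control cells and 0.487 RPKM after BS008. RPKM is the read count scaled to the length of the exon (per kilobase) and to the reads of its library. The median member was at 8.72 RPKM in control cells and at 9.06 RPKM after BS008, against 1.25 and 1.38 RPKM over all exons. Medium exons with gaps of 1000 to 10000 bp on both sides, of which there were 46112, had medians of 2.65 and 2.70 RPKM.

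The most abundant members show how these exons appear in transcripts with many reads. The highest, at 6646267 to 6646382 on the plus strand of chromosome 12 (116 bp), was covered by 36004 control reads and 35293 under BS008, or 5595 and 5679 RPKM. Its share of the reads on itself and its neighbours was 35.1% and 34.9%. On the plus strand of chromosome 6, neighbouring members at 33243574 to 33243660 (87 bp) and 33243742 to 33243843 (102 bp) went from 14225 to 19579 reads and from 12700 to 18168 reads. Both were thus higher after BS008, by 1.43-fold (exact 95% interval 1.39 to 1.46) and 1.48-fold (1.45 to 1.52), where the intervals cover counting error only. On the minus strand of chromosome 7, the member at 26236177 to 26236278 (102 bp) went from 14515 to 7046 reads, which is 0.503-fold (0.488 to 0.517). The member at 13051355 to 13051468 on the plus strand of chromosome 19 (114 bp) had 15780 and 13906 reads, or 0.912-fold (0.892 to 0.934). In all 5 the share differed by under 1.1 percentage points between the libraries, the furthest being the first of the chromosome 6 exons, which differed by -1.04 points. The 5′ flank of that exon had only 33 and 103 reads, so its share compares it mainly with the other chromosome 6 member.

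To compare the level of each exon, counts were scaled to the sum of their library (CPM), and 0.5 was added before taking log2 of BS008 over control. The higher of the libraries had to reach 10 counts, which 2697 members reached and 1074 did not. The level was at least 2-fold higher after BS008 for 94 members (3.49%) and at least 2-fold lower for 108 (4.0%). Over all 131330 exons with enough reads, 3.73% were higher and 3.79% lower, percents close to those of the members. The added 0.5 keeps exons near the minimum of 10 counts from reaching 2-fold, however. Without the minimum the counts of members were the same 94 and 108. The median count in control cells was 55 over all members and 12 over all exons listed, so these percents are not matched for depth. Their median log2 ratio was 0.00069 (quartiles -0.33 and 0.30), and that of all exons was -0.04. By reading frame, 28 of 1013 members with a length divisible by 3 were higher (2.76%) and 39 lower (3.85%). Of the 1684 others, 66 were higher (3.92%) and 69 lower (4.10%). With kilobase gaps the values were 2.28% and 3.46% for lengths divisible by 3, and 2.23% and 3.25% for the others. The difference between the frame classes was not tested.

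Most of these exons changed together with the exons on either side. Of the 94 higher members, 80 (85.1%) had flanking exons whose summed reads were also at least 2-fold higher, and 91 had flanks that were higher at all. Of the 108 lower members, 98 (90.7%) had flanks at least 2-fold lower and 107 had lower flanks. The same was seen for 79.1% and 78.1% of the higher and lower exons with kilobase gaps, and for 57.5% and 65.7% of all exons with a neighbour on both sides. The files do not say whether a read that crosses a junction was counted on both exons, and such reads would move neighbours together. Its part in these values was not tested.

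**Figure D1:**
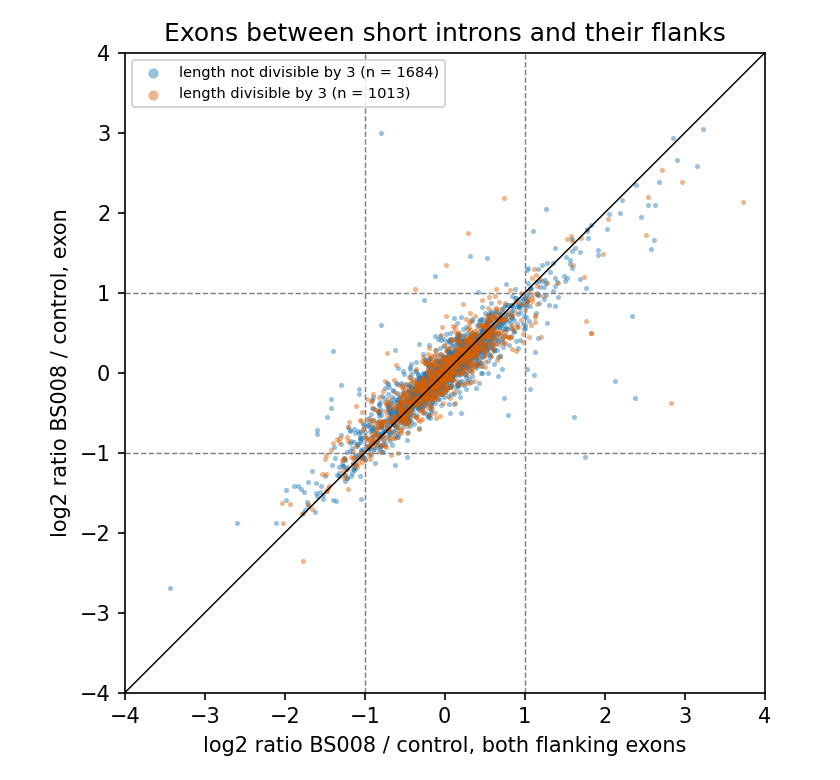
Each point is a member that reached 10 counts in one of the libraries, with the log2 ratio (BS008 over control) of its 2 flanking exons together on the x axis and that of the exon itself on the y axis. The points lie along the diagonal, and of the members at least 2-fold higher or lower (dashed lines), 80 of 94 and 98 of 108 have flanks past the same line.

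The members with the largest increases among those with at least 100 counts were on 4 chromosomes. On chromosome 4, the minus-strand exon at 74964516 to 74964639 (124 bp) went from 9 reads in control cells to 266 after BS008, a log2 ratio of 3.04. Its flanks went from 8 to 187 reads on the 5′ side and from 3 to 137 on the 3′ side, so the 3 exons rose side by side and its share stayed at 45% and 45.1%. On chromosome 1, the plus-strand exons at 45268627 to 45268825 (199 bp) and 45270011 to 45270173 (163 bp) went from 42 to 488 reads and from 17 to 246 reads. Their log2 ratios were 2.93 and 2.66, and those of their flanks were 2.85 and 2.91. On chromosome 6, the plus-strand exon at 37138549 to 37138655 (107 bp) had 7 and 175 reads (log2 ratio 2.59), with flanks from 32 to 435 and from 9 to 129. For these exons with few control reads the fold is wide, 30.6-fold on chromosome 4 (exact 95% interval 15.9 to 67.7) and 25.9-fold on chromosome 6 (12.3 to 65.3).

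The remaining exon of this group stood apart from its flanks. It lies on the plus strand of chromosome 20 at 47897022 to 47897107 (86 bp) and went from 891 control reads to 7060 under BS008, 8.20-fold more (7.65 to 8.81). Its flanks went the other way, from 49 to 19 reads on the 5′ side and from 15 to 5 on the 3′ side. Per base, the exon was at 31.2 times the level of its flanks in control cells and at 660 times after BS008. As it already held 93.3% of the reads in control cells, its share had little room to rise and reached 99.7%. Whether it and its flanks belong to the same transcript was not tested, so its share cannot be read as inclusion.

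The members with the largest decreases fell with their flanks. On chromosome 2, the plus-strand exon at 177054277 to 177054409 (133 bp) went from 259 to 16 reads (log2 ratio -2.69), and its flanks from 857 to 69 and from 3240 to 273. On chromosome 1, the plus-strand exons at 94953250 to 94953347 (98 bp) and 94964339 to 94964404 (66 bp) went from 368 to 77 reads and from 341 to 70 reads, with log2 ratios of -1.88 and -1.88. Their shares differed by 1.93 and -0.80 points. On chromosome 3, the minus-strand exon at 52562199 to 52562327 (129 bp) had 628 and 159 reads (log2 ratio -1.77), with flanks at a log2 ratio of -1.78. The remaining exon of this group, on chromosome 8, is described with the repeated patterns below.

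Runs of members give the level along a longer stretch. In the 123 runs with at least 3 members of 100 or more counts, the median range of the log2 ratio within a run was 0.30, and in 120 of them the range was under 1. The medians of these runs spread from -1.67 to 1.67. Members of a run share flanks and probably a transcript, so they are not independent of each other.

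The longest run had 13 members within 3073 bp of the minus strand of chromosome 20, from 60885234 to 60888306. Their reads ranged from 92 to 371 in control cells and from 43 to 161 after BS008. All 13 were lower after BS008, 7 of them at least 2-fold, with log2 ratios from -1.75 to -0.61. Summed over the run, reads went from 3463 to 1421, or 0.425-fold (exact 95% interval 0.399 to 0.452). The lowest ratios, -1.75 and -1.65, belonged to the exons nearest the 5′ end of the run. Over its 12 members with 100 or more counts the range was 1.14, so it was among the 3 of 123 runs whose range was not under 1.

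The third longest run, with 9 members on the minus strand of chromosome 17 between 80041078 and 80043278, was lower by nearly the same factor. Its reads ranged from 794 to 2713 in control cells and from 331 to 1083 after BS008, and 8 of 9 members were at least 2-fold lower. The sum went from 15053 to 5892 reads, or 0.405-fold (0.393 to 0.418), while no share in the run moved by more than 4.17 points. The second longest run, of 10 members on the plus strand of chromosome 16 from 67235423 to 67237486, had 6 to 48 reads per exon in control cells and 4 to 27 after BS008. At that depth its summed fold of 0.770 had an interval of 0.596 to 0.992, and intervals for its single exons were not computed.

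**Figure D2:**
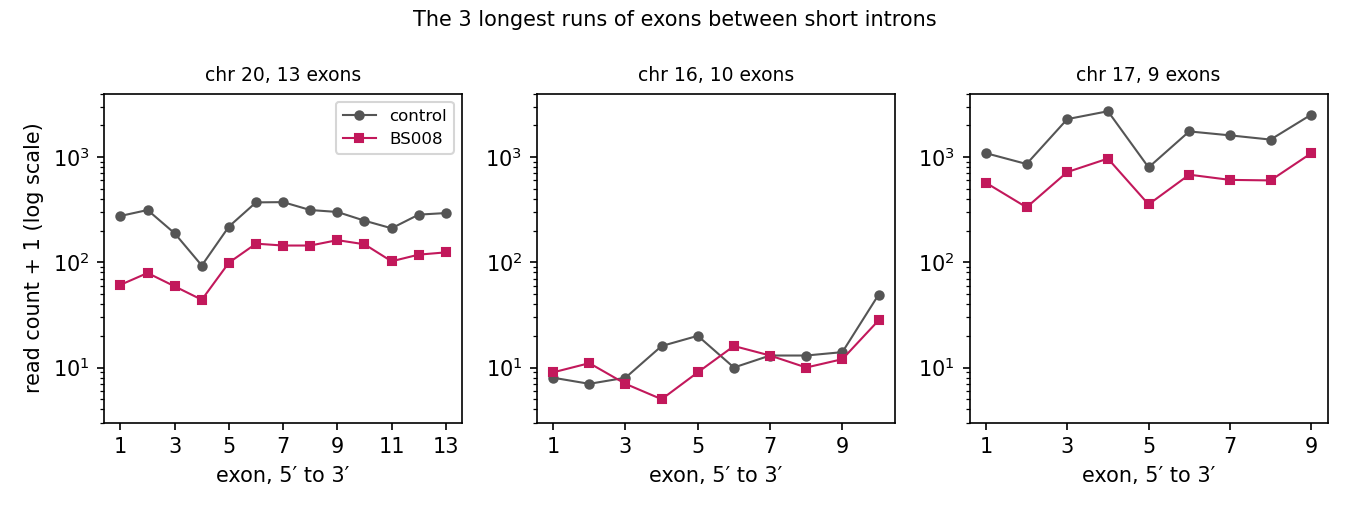
Read counts plus 1 (y axis, log scale) of each exon of the 3 longest runs, in 5′ to 3′ order (x axis), in control cells (circles) and BS008-treated cells (squares). Along the runs on chromosomes 20 and 17 every exon has fewer reads after BS008, with log2 ratios from -1.75 to -0.61 and from -1.59 to -0.85, while the run on chromosome 16 has 4 to 48 reads per exon and the lines cross.

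Splicing of single exons was then followed by the share, the percent of the reads on an exon and its 2 flanking exons that lie on the exon itself. It does not depend on the library total or on the level of the whole transcript. At least 100 reads on the 3 exons were required in each library, which 2141 members reached and 1630 did not. The median share was 30.9% in control cells and 31.0% after BS008, and the median change was 0.0544 points. A change of at least 10 percentage points was called.

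Few members changed by that much. The share was higher after BS008 for 10 members (0.467%), where 2.07% of all 104988 exons tested were higher. It was lower for 6 members (0.280%), where 1.90% of all exons were lower. In either direction this gives 0.747% of members, 1.88% of the 20108 exons tested with kilobase gaps and 3.97% of all exons. The median absolute change was 1.47 points for members, 1.69 points with kilobase gaps and 1.68 points over all exons.

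Small changes were more common than large ones. The 95% interval of the change (Newcombe's method, counting error only) did not include 0 for 210 of the 2141 members (9.81%), 119 of them higher and 91 lower. Intervals at this level miss in 5% of cases by construction when the sampling of reads is the only source of error. The same value was 10.3% with kilobase gaps and 16.9% over all exons. It depends on depth, and with at least 500 reads on the 3 exons in each library it was 14.8% for members. At that depth it was 16.3% with kilobase gaps and 24.2% over all exons. Of the 16 members past 10 points, 10 had under 200 reads in the shallower library. The whole interval lay past 10 points for 5 members (0.234%), against 0.318% with kilobase gaps and 1.35% over all exons.

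**Figure D3:**
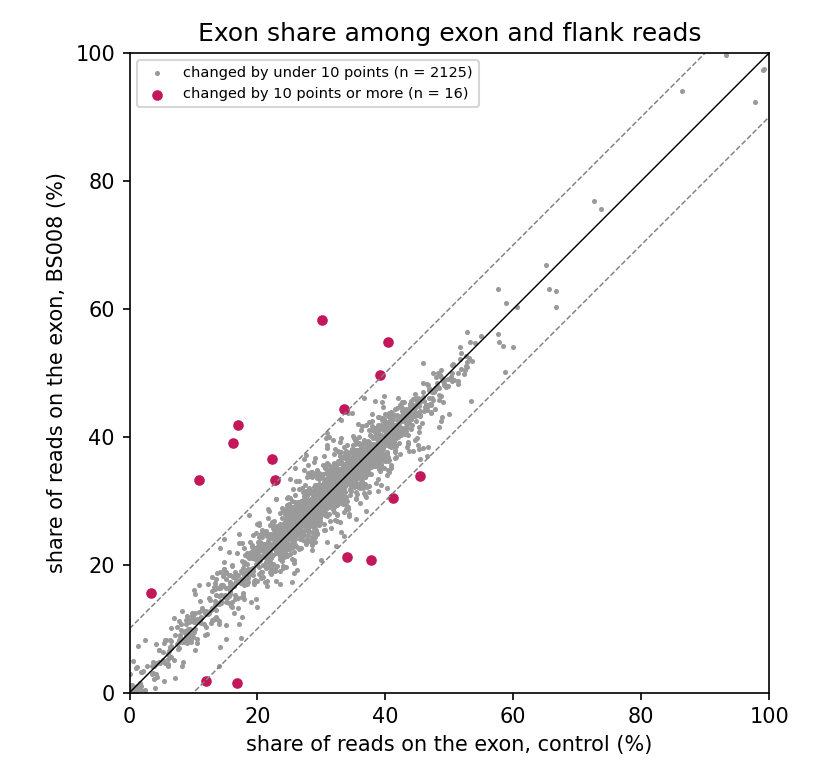
The share of each member with at least 100 reads on itself and its flanks in each library, in control cells (x axis, percent) and BS008-treated cells (y axis, percent). The 16 members that changed by 10 points or more (large points) lie outside the dashed lines, and the others lie between them around the line of equal shares.

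Depth differed between these groups of exons, with a median of 526 reads on the 3 exons for members and 355 with kilobase gaps, taken in the shallower library. The comparison was therefore also made at 500 reads or more. There, 1 of 1112 members (0.0899%) changed by 10 points, and 2.53% of all 46509 exons did. By the length of both gaps, the percent of medium exons that changed was 1.66% at 151 to 500 bp, 1.30% at 501 to 1000 bp, 1.49% at 1001 to 3000 bp and 2.15% at 3001 to 10000 bp with 100 reads. With 500 reads it was 0.685%, 0.136%, 0.473% and 0.842%. Members thus had the lowest percent of the 5 gap classes at both depths, but with 500 reads the class of 501 to 1000 bp, with 1 of 735 exons, was close to them. Median absolute changes at 500 reads were nearly level, at 1.17 points for members and 1.06 to 1.15 points in the other classes.

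**Figure D4:**
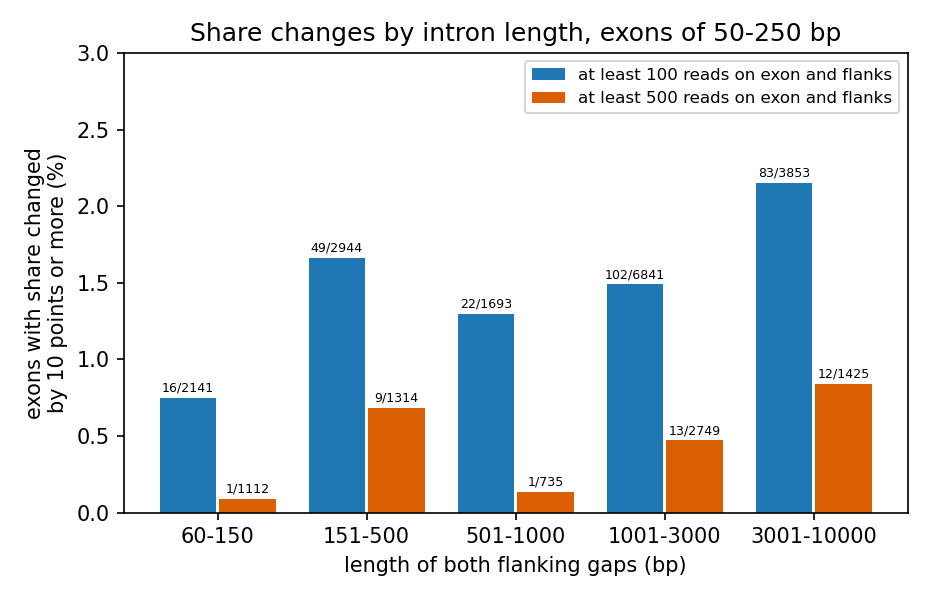
The percent of exons of 50 to 250 bp whose share changed by 10 points or more (y axis), by the length of the gaps on both sides (x axis, bp), with a minimum of 100 or 500 reads for exon plus flanks in each library. The fraction over each bar gives exons changed over exons tested, and the members (60 to 150 bp) are at 16 of 2141 and 1 of 1112.

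Both frame classes held changed members. Of 809 members tested with a length divisible by 3, 5 changed by 10 points (0.618%), 3 higher and 2 lower. Of 1332 others, 11 changed (0.826%), 7 higher and 4 lower. The difference between the classes was not tested. With kilobase gaps the values were 1.82% and 1.93%. The median absolute change was 1.37 points for members divisible by 3 and 1.5 points for the others.

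The level of an exon per base, divided by that of its flanks, serves as only a rough measure of how regularly it is included. Its median was 1.08 in control cells and 1.07 after BS008 for members divisible by 3, and 1.09 and 1.10 for the others. Exons that are often left out should lie well below 1, but the level also varied with length. In control cells its median was 1.24 for members of 50 to 99 bp and 0.909 for those of 150 to 199 bp. Among members whose flanks were both 50 to 250 bp the medians were lower. The groups compared next were not matched for length. With both libraries summed, 39 members (1.82%) were under 0.3, against 5.22% with kilobase gaps and 14.6% of all exons. They were 19 of 809 members divisible by 3 (2.35%) and 20 of 1332 others (1.5%). At the other end, 101 members (4.72%) were at more than 3 times the level of their flanks, against 8.19% with kilobase gaps and 9.83% of all exons. Whether these members and their flanks belong to the same transcript was not tested. Where the flanks belong to another transcript, the share does not describe splicing.

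Among members not divisible by 3, the largest rise in share was on the plus strand of chromosome 2. The exon at 207026762 to 207026828 (67 bp) went from 31 reads to 130 under BS008, and its flanks had 16 and 39 on the 5′ side and 56 and 54 on the 3′ side. Its share rose from 30.1% (95% Wilson interval 22.1 to 39.5%) to 58.3% (51.7 to 64.6%), with a log2 ratio of 1.47 for the exon and 0.31 for its flanks together. On chromosome 2, the minus-strand exon at 27434768 to 27434820 (53 bp) went from 11 to 30 reads. Its 5′ flank went from 292 to 143 reads and its 3′ flank had 19 in both libraries. The share of 3.42% (1.92 to 6.01%) in control cells and 15.6% (11.2 to 21.4%) after BS008 thus came from more reads on the exon and fewer on the flank.

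Others in this group rested on uneven flanks. On chromosome 7, the plus-strand exon at 75039646 to 75039743 (98 bp) went from 26 to 71 reads and from 16.9% to 41.8%, but its 5′ flank had 0 and 1 reads. Its share therefore compares it with the 3′ flank alone, which had 128 and 98 reads, and against the 5′ flank alone the change was -1.39 points. On chromosome 16, the minus-strand exon at 2143812 to 2144014 (203 bp) went from 27 to 58 reads and from 22.3% to 36.5%, a change of 14.2 points (3.33 to 24.3). Its 5′ flank went from 17 to 38 reads and its 3′ flank from 77 to 63, and against the 5′ flank alone the change was -0.947 points. Other members of this class past 10 points were at 49154154 to 49154376 on the minus strand of chromosome 3 (223 bp, 33.5% and 44.4%) and at 74077626 to 74077836 on the plus strand of chromosome 17 (211 bp, 39.1% and 49.7%). A row of the opposite strand overlaps the latter, and the counting is not stated to use strand.

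The falls in this class included exons whose flanks rose. On chromosome 11, the plus-strand exon at 62432894 to 62433042 (149 bp) went from 71 reads to 19, while its flanks went from 27 to 63 and from 323 to 1138. Its share fell from 16.9% (13.6 to 20.7%) to 1.56% (0.999 to 2.42%), and its level per base from 3.89 to 0.304 times that of the flanks. Whether it and its flanks belong to the same transcript was not tested, so the fall cannot be read as skipping. On chromosome 1, the minus-strand exon at 173835106 to 173835166 (61 bp) went from 70 to 49 reads as its flanks went from 283 to 1337 and from 231 to 1352. The share went from 12.0% (9.60 to 14.9%) to 1.79% (1.36 to 2.36%), with a log2 ratio of 2.38 for the flanks and -0.32 for the exon, and per base the exon was at 0.152 and 0.0203 times their level. It was the one changed member with at least 500 reads in both libraries, and the same limit applies to it. On chromosome 16, the minus-strand exon at 15227347 to 15227560 (214 bp) had 83 and 71 reads and shares of 45.4% and 33.8%, a change of -11.5 points (-21.0 to -1.87).

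Among members divisible by 3, the largest rise was on the minus strand of chromosome 7, at 72425164 to 72425286 (123 bp). It went from 52 to 169 reads and from 16.2% (12.6 to 20.6%) to 39.0% (34.6 to 43.7%). Its 5′ flank had 0 and 2 reads, so here too the share compares the exon with 1 flank, which had 269 and 262 reads, and against the 5′ flank alone the change was -1.17 points. Next in order below the threshold were the exons at 3751187 to 3751327 on the minus strand of chromosome 19 (141 bp, 27.6% and 37.1%) and at 47447971 to 47448102 on the plus strand of chromosome 3 (132 bp, 36.7% and 46.0%). The interval of the change ran from 1.35 to 17.4 points for the former and from -0.18 to 18.5 points for the latter, so the latter is within counting error.

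The largest fall in this class, of an exon on chromosome 8 from 37.7% to 20.7%, is described with the repeated patterns below. Also on chromosome 8, the plus-strand exon at 145725870 to 145725995 (126 bp) had 91 and 52 reads and shares of 41.2% and 30.4%, a change of -10.8 points (-20.0 to -1.16). Under the threshold were exons on chromosome 17 at 7749897 to 7750058 (plus strand, 162 bp, 46.5% and 37.0%) and 45915897 to 45916085 (minus strand, 189 bp, 33.5% and 24.5%). Another was on the plus strand of chromosome 10 at 75556871 to 75557029 (159 bp, 37.0% and 28.4%). The level of the chromosome 17 exon on the plus strand rose from 67 to 101 reads as its share went down, and its flanks went from 43 to 91 and from 34 to 81, so a lower share was not always fewer reads.

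**Figure D5:**
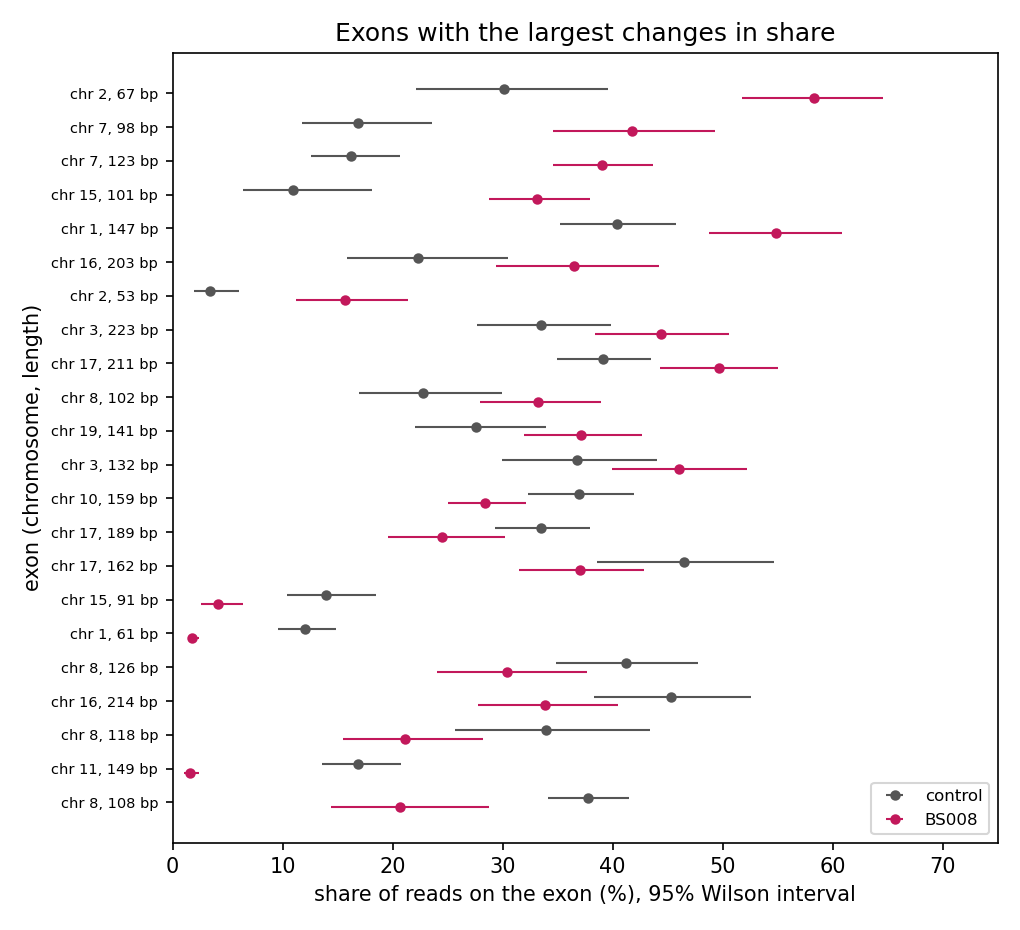
The share (x axis, percent) of the named exons with the largest changes, each labelled by chromosome and length, in control cells (grey) and BS008-treated cells (red), with bars for 95% Wilson intervals. The intervals of the 2 libraries are apart for exons such as the one of 67 bp on chromosome 2 (30.1% and 58.3%), and overlap for others such as the one of 132 bp on chromosome 3 (36.7% and 46.0%).

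Several of the changed members occur more than once in the genome as listed. The length of a member together with its 2 gaps recurred in another row for 244 of 3771 members, and for 5 of the 16 that changed. Reads from near-identical copies can be placed on either, so the values of these exons are uncertain. On chromosome 8, the minus-strand exon at 145317299 to 145317406 (108 bp) went from 246 reads in control cells to 25 after BS008, a log2 ratio of -2.35 and a share of 37.7% and 20.7%. Against its 5′ flank alone (174 and 14 reads) the change was 5.53 points. The row of the same pattern at 145486352 to 145486459 went the other way, from 30 to 296 reads. Together they had 276 and 321 reads, and the share over both was 37.1% and 33.7%.

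In the other repeated patterns, too, the share changed less with the rows summed than for the exon alone. The second row did not go the other way in all of them. On chromosome 8, the minus-strand exon at 145319418 to 145319519 (102 bp, 36 and 92 reads) had a share of 22.8% and 33.2%, but with its second row (493 and 778 reads) the share was 32.0% in both libraries. The exon just 5′ of it, at 145319617 to 145319734 (118 bp, 36 and 33 reads), was at 34.0% and 21.2% alone and at 31.6% and 25.4% with its second row. Against its 5′ flank alone its change was 0.134 points. On chromosome 15, the minus-strand exon at 34674169 to 34674269 (101 bp) went from 12 to 132 reads and from 10.9% to 33.2%. Its second row, at 34820390 to 34820490, had 109 and 90 reads, and together the share was 26.9% and 31.5%.

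The fifth pair lay on 2 chromosomes. The exon at 17084437 to 17084583 on the minus strand of chromosome 1 (147 bp) had 134 and 141 reads and a share of 40.4% and 54.9%. The row at 49722171 to 49722317 of chromosome 3 had 129 and 283 reads, and together they were at 36.3% and 42.0%. A member just under the threshold, at 83145758 to 83145848 on the minus strand of chromosome 15 (91 bp, 13.9% and 4.08%), had its pattern in 3 rows, which summed to 12.3% and 8.68%. With the rows of a pattern summed, no share of these exons moved by 10 points, and the furthest change was -6.25 points. In some patterns the second row held most of the reads, as with 493 against 36 control reads on chromosome 8. There the sum mainly follows the second row, so it cannot show whether the share of the exon itself changed. Whether the rows are copies in sequence was not tested.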

How the data were processed

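RNA of Huh-7 cells was sequenced with an Illumina mRNA-seq sample kit, 1 library for each condition, grouped by the treatment each sample's label gives. The authors deposited raw read counts for 239322 exon rows, with coordinates on hg19 per the submitters' processing notes. They also deposited RPKM, which the counts, row lengths and library totals returned to within 4.7e-06. How reads were aligned and counted, on junctions too, and with which annotation is not given in the sources used here. The annotation at hand is on GRCh38 and was not used, so no gene names or sequences are given.

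The flanking exons are the nearest rows on the same strand that do not overlap the exon, and among rows at equal distance the longer. Of the members, 19 overlapped a row of the same strand and 62 a row of the opposite strand. Log2 ratios used CPM with a pseudocount of 0.5 and a minimum of 10 counts in the higher library. Shares needed 100 reads or more for exon plus flanks in each library. Intervals are Wilson's for shares and for percents of exons changed, Newcombe's for differences of shares and exact (Clopper-Pearson) for folds, all at 95%. They cover counting error only, as if reads, or exons for those percents, were independent. No test was made. Named are the 5 members with the largest rise and fall in share in each frame class, the 5 with the highest and lowest log2 ratio at 100 counts or more, the 5 with the highest RPKM in control cells and the 3 longest runs, and the other members whose share changed by 10 points were added after their values were seen. The steps were tested on simulated data. The members, thresholds and rules were chosen with earlier results of these data known. Alternatives covered the pseudocount, minimums, thresholds, gap limits, overlaps, repeated patterns and library sizes, including TMM factors. Python 3.11.15, numpy 2.4.6, pandas 2.3.3, scipy 1.17.1 and matplotlib 3.10.9 were used, and edgeR 4.0.16 in R 4.3.3 for TMM.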

Additional observations from a re-analysis of the deposited data

How the results depend on the processing

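Of 79 values recomputed for the counts and medians, 42 stayed within 1.5 times (counts) or within the 95% interval of the median, and 37 moved. The counts of members at least 2-fold higher and lower (94 and 108) were 192 and 233 with a pseudocount of 0.1, 62 and 71 with a pseudocount of 1, and 288 and 350 at 1.5-fold. With gaps of 60 to 120 bp, which takes fewer exons, they were 61 and 71, and with gaps of 60 to 200 bp 164 were lower. The median log2 ratio was 0.04 (0.0370) with TMM and 0.02 (0.0240) with median-of-ratios size factors. With TMM 103 members were higher and 100 lower, and over all exons 5347 and 4370 were, against 4902 and 4977 in the main scaling. Counts over all exons were recomputed for the library sizes and, for shares, with 500 reads (2.53%). For the other settings the members' counts have no such comparison. The shares depended on depth and threshold. Against 10 higher and 6 lower, 46 and 27 passed with 20 reads, 0 and 1 with 500 reads, 90 and 80 at 5 points, and 4 and 0 at 20 points. With gaps of 60 to 120 bp 4 were higher, and with gaps of 60 to 200 bp 13 were lower. By frame (5 divisible by 3 and 11 not), 25 and 48 passed with 20 reads, 0 and 1 with 500 reads, 60 and 110 at 5 points and 1 and 3 at 20 points. Without repeated patterns 2 of those divisible by 3 remained in number. Median levels relative to the flanks, with flanks of 50 to 250 bp only, were 1.01 in control cells (1.014) and 1.01 after BS008 (1.005) for members divisible by 3, and 1.02 (1.023) and 1.01 (1.014) for the others. With 500 reads they were 1.11 after BS008 for members divisible by 3, and 1.14 and 1.13 for the others.

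Of 74 values for single exons, 55 stayed within their interval and 14 moved further. Another 5 changed sign when the 5′ flank alone was used in place of both. On that basis the change in share was -1.17 points for the exon of chromosome 7 at 72425164, 5.53 for that of chromosome 8 at 145317299, -0.947 for that of chromosome 16 at 2143812, 0.134 for that of chromosome 8 at 145319617 and -1.39 for that of chromosome 7 at 75039646. Both chromosome 7 exons had 0 control reads on the 5′ flank, so on that basis their shares could not rise and the sign says nothing. No paired analysis was possible because each condition has 1 library, and no library could be left out. More reads would narrow the counting intervals but not show how far cultures vary.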

Other observations

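The level of a member relative to its flanks differed between length classes. Per base, the median was 1.24 times the flanks for the 766 members of 50 to 99 bp tested, 1.08 for the 837 of 100 to 149 bp, 0.909 for the 387 of 150 to 199 bp and 1.02 for the 151 of 200 to 250 bp, all in control cells. In BS008-treated cells the same medians were 1.24, 1.07, 0.909 and 0.981, so the order was kept except that the 2 longest classes came closer. A share changed by 10 points in 4, 8, 0 and 4 of these members, and the median absolute change was 1.32, 1.33, 1.72 and 1.79 points. Such changes made up 0.747% of all members tested and 3.97% of all exons. Differences between the length classes were not tested.

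The share was also followed by spacing. With both gaps at 90 bp or less, 3 of 463 members tested changed by 10 points. With the longer gap at 91 to 120 bp 6 of 911 did, and with the longer gap at 121 to 150 bp 7 of 767 did. The percent was 0.747% over all members and 3.97% over all exons, and differences between the spacings were not tested. The flank on the 3′ side was at 1.06 times the level per base of the flank on the 5′ side in control cells (median over members) and at 1.03 times in BS008-treated cells, against 1.06 and 1.07 with kilobase gaps.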
